A study of Mus musculus with 6 samples.

Results

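The transcription factor p53 and the genes it directly controls were followed in RNA sequencing (RNA-seq) data from cultured mouse cells in which the chromatin protein CTCF had been knocked down. The set held 32 genes of 24732 gene symbols in the table of FPKM (fragments scaled to transcript length and to sequencing depth) and of 24813 symbols in the table of read counts. It comprised Trp53, which encodes p53, together with 31 genes well known as p53 targets. The members were sorted by role into 5 genes of p53 and its feedback loop, 9 of arrest and growth control, 13 of apoptosis and 5 of DNA repair.

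The study asked what CTCF, which folds chromatin into loops and domains, does in female germline stem cells (FGSCs). The 6 libraries came from FGSCs labelled C57BL/6 at more than 20 passages, grown on mitotically inactivated STO fibroblasts, which serve as a feeder layer. According to the methods, the line had been isolated from ovaries of neonatal Ddx4-Cre; mT/mG mice, in which Cre driven by a germ cell promoter switches a membrane fluorophore. Both groups of 3 libraries shared this origin. The shCTCF group carried a lentiviral short hairpin RNA against Ctcf and had been selected with puromycin. The control group is labelled only as control, and neither its vector nor any selection is described. Nothing states whether the replicates were separate cultures, so p-values measure the spread between these samples, which may be technical.

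p53 is held at a low level by MDM2, a ubiquitin ligase that marks it for destruction and is itself a p53 target, so that the pair forms a feedback loop. Stress such as DNA breaks, stalled replication or disturbed ribosome synthesis frees p53 from this control, mostly at the level of the protein, and p53 then activates genes for cell cycle arrest, DNA repair and apoptosis. In stem cells and germ cells the pathway is known as a guard against propagation of damaged genomes.

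The knockdown was visible at the level of the targeted gene. Ctcf measured 58.2, 56.1 and 53.5 FPKM in the control samples and 0.74, 0.55 and 0.629 FPKM in the shCTCF samples, a level 98.9% lower (log2 fold change −5.12 ± 0.09 SE, limma adjusted p = 1.1e-08). Total counts were between 1686052 and 7044272 per library, with control replicate 2 the shallowest. Of 8 germline markers, 2 reached a mean of 1 FPKM over the 6 samples (Ifitm3 and Etv5). Ifitm3 did so only through shCTCF, with group means of 0.737 FPKM in control and 10.8 FPKM in shCTCF. Zbtb16 had a mean of 1.56 FPKM in control and 0.288 FPKM in shCTCF, and Dppa3 and Gfra1 were listed at 0 in all 6 samples. Of 22 leukocyte and mast cell markers, 14 reached that level, with a sum of 2220 to 2280 FPKM in the control and 2550 to 2650 FPKM in the shCTCF samples, while Fcer1a was listed at 0. Of 20 fibroblast markers, which would mark feeder cells, 6 did so, with sums of 12.9 to 13.3 and 24.2 to 25.1 FPKM, and Col3a1, Col5a2, Lum and Loxl1 were listed at 0. The defining germ cell genes were thus absent or near 0, and the label FGSC is used here as given. Both sums were higher in shCTCF, but the genes within each list moved in both directions. Of the 6 fibroblast markers 3 rose and 3 fell, with Col6a1 going from 0.144 to 15.3 FPKM and Fn1 from 2.22 to 0.0266 FPKM in the group means. Such genes reached the level of 1 FPKM only through a single group. Of the 14 leukocyte and mast cell markers 6 rose (42.9%) and 4 fell (28.6%), with Hdc going from 4.25 to 87.2 FPKM and Ctsg from 151 to 2.22 FPKM. Lyz2, among those that rose, reached the level of 1 FPKM only through shCTCF. Among all genes tested on FPKM, 28.8% were called higher and 44.2% lower. The part of these shifts in the results below was not tested. In bulk RNA, a change in the share of a cell type and a change in RNA per cell cannot be told apart.

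Most p53 targets that were expressed rose after CTCF knockdown, whereas Trp53 mRNA itself fell. Of the 26 members whose mean reached 1 FPKM, 19 were higher and 2 were lower in shCTCF by limma at an adjusted p under 0.05. Among all 9976 genes tested in this way, 28.8% were called higher and 44.2% lower. The median log2 fold change of the members was 1.12, against −0.17 over all genes tested. A rise of at least 2-fold on log2(FPKM + 1) was called in 14 members, against 11.3% of all genes, and 16 members had a ratio of mean FPKM of at least 2. The control and shCTCF ranges did not overlap in 20 members that were higher and 3 that were lower, where 30.8% and 45.8% of all genes were separated in those directions. All 26 tested members had a control mean of at least 1.68 FPKM, so none entered the test only through its level in shCTCF. By fold change, 8 of them ranked among the top 500 of the 9976 genes and 13 among the top 1000, led by Trp53inp1 at rank 82, Fas at rank 93, Ccng1 at rank 125 and Pmaip1 at rank 150.

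**Figure D1:**
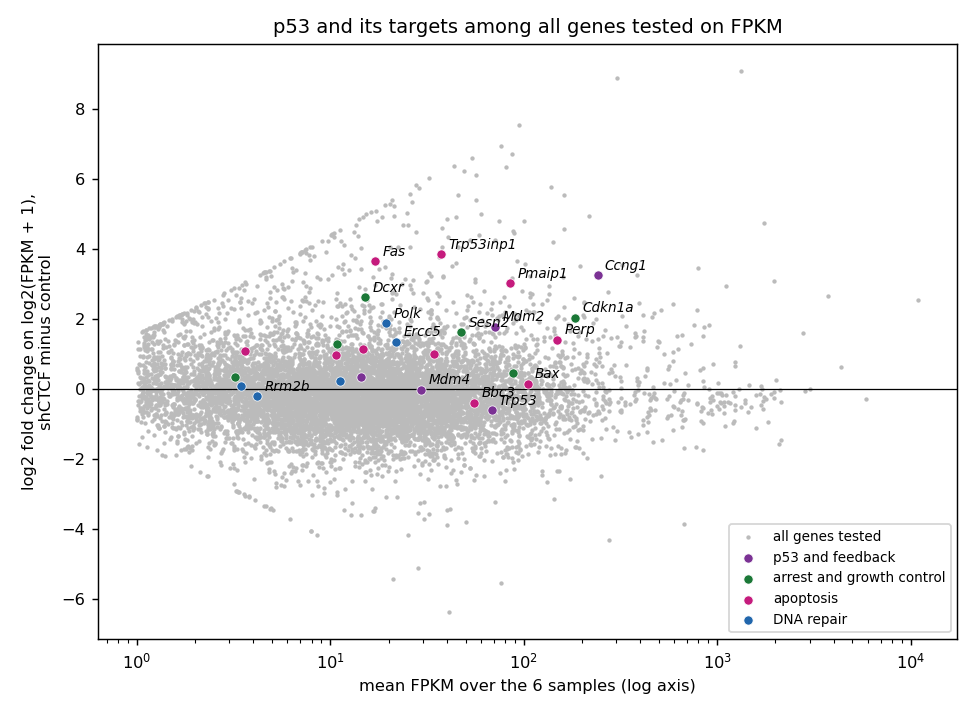
Each point is a gene tested on FPKM, with its mean level over the 6 samples on the x axis (FPKM, log scale) and its log2 fold change (shCTCF minus control) on the y axis; the members are coloured by role. Members lie mostly above 0, up to 3.84 for Trp53inp1, while Trp53, Bbc3, Rrm2b and Mdm4 (−0.02) lie below it.

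On FPKM, all 6 tested genes of arrest and growth control rose, with a median log2 fold change of 1.45. In the apoptosis group, 8 of 10 rose and 1 fell, with a median of 1.12. The feedback group had 3 of 5 higher and 1 lower, with a median of 0.34, and the repair group had 2 of 5 higher, with a median of 0.22. On counts, 5 of 5 tested were higher for arrest and growth control, 4 of 5 for apoptosis, 2 of 2 for feedback and 3 of 4 for repair, with medians of 1.6, 1.55, 1.97 and 0.98. Differences between the role groups were not tested.

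The count table served as a check. Its fragments were assigned per transcript accession, and a fragment that touched exons of more than 1 accession was left unassigned, so a gene with overlapping transcripts kept only the reads from bases held by a single accession. Those countable bases made up at least 80% of the exonic length in 16 of the 32 members and as little as 0.7% in Apaf1 and Trp53inp1. With edgeR, 16 members could be tested on counts, of which 14 were higher and 0 lower in shCTCF, against 34.8% and 34.3% of the 7341 genes tested. At an unadjusted p under 0.05, 0 members were lower, and DESeq2 also called 0 lower. Among the 16 members that were mostly countable, 12 passed the count filter. All 12 had the same sign in both tables, and 11 were called higher on counts. Their log2 fold changes on counts exceeded those on FPKM by 0.15 to 0.56. In all, 12 members were called higher in both tables.

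**Figure D2:**
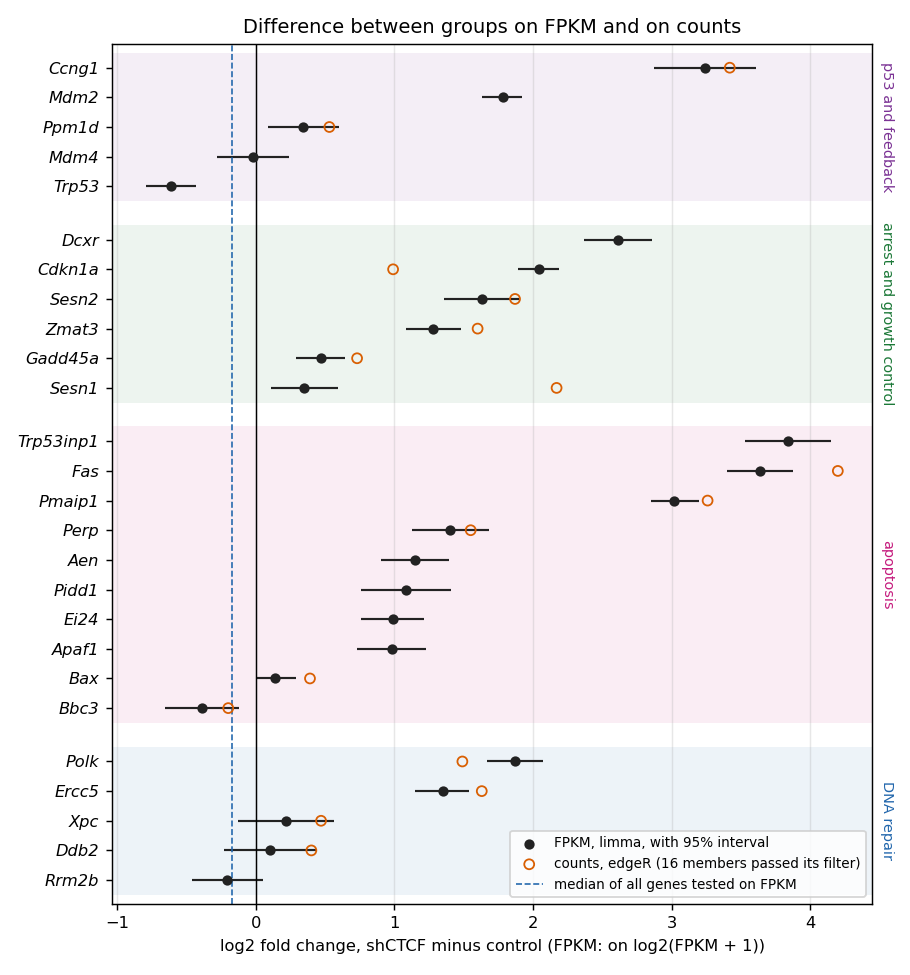
Log2 fold change (shCTCF minus control) of the 26 tested members, ordered within each role group; filled points with lines are FPKM estimates with 95% intervals, and open circles are edgeR estimates on counts. The dashed line is the median of all genes on FPKM (−0.17). Most members lie to its right, and Sesn1 (0.35 on FPKM, 2.17 on counts) and Cdkn1a (2.04 and 0.99) show the widest gaps between the tables.

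p53 binds DNA as a tetramer at a pair of decamer half-sites, each with a C and a G in fixed places around an A/T-rich centre. The annotated starts of all genes were searched on mm9 within 3000 bases on either side for a full site of 20 bases, made of a pair of adjacent half-sites with no spacer, with the C and G of each half-site intact and at most 2 mismatches elsewhere. The motif is a palindrome, so a match on one strand is a match on the other. Such a match was present in 11 of the 32 members (34.4%), compared with 6.59% of 24951 genes and 7.33% of the 9964 genes that were also tested on FPKM. With at most 1 mismatch the share was 12.5% in the members and 1.06% in all genes. Since the members were listed as known p53 targets, a higher share can follow from that choice and says nothing about these samples. Among the 19 members called higher on FPKM, 7 held a match (36.8%), and among the 13 that were not called higher, 4 did (30.8%). Of the 14 members at least 2-fold higher on log2(FPKM + 1), 7 held a match. Differences between these shares were not tested. Genes with several annotated starts had more sequence searched. A match describes the sequence only and is neither evidence of binding nor a cause of any change, and its lack says nothing about p53. Matches are printed below for members of different response, from Ccng1 and Fas with large rises to Bax without a call on FPKM and Gdf15, which was barely expressed. The 20 bases of the match are in capitals with 5 flanking bases on each side, on the strand of the gene. That is the minus strand of the genome for Ccng1, Zmat3, Bax and Gdf15 and the plus strand for Cdkn1a, Fas and Perp.
Ccng1, intron, chr11:40568438-40568457, 1 mismatch: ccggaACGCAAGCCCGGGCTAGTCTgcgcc
Ccng1, 185 bases upstream, chr11:40568964-40568983, 1 mismatch: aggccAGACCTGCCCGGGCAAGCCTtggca
Cdkn1a, 41 bases upstream of its first start, chr17:29227873-29227892, 1 mismatch: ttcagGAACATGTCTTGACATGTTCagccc
Zmat3, intron, chr3:32263253-32263272, 0 mismatches: gtgagAAACAAGCCCAGGCATGTCTtggga
Fas, intron, chr19:34366854-34366873, 2 mismatches: tggcaGGGCATGTACAAACATGTCAtcttg
Perp, 2027 bases upstream, chr10:18562840-18562859, 2 mismatches: ctcacATTCTAGCCCAGGCTTGCCCagaat
Bax, intron, chr7:52721944-52721963, 2 mismatches: cccccGGGCAGGCCCGGGCTTGTCGctggc
Gdf15, exon, chr8:73155865-73155884, 1 mismatch: aggggTGACTTGCCTGAACTTGCCTtttct

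**Figure D3:**
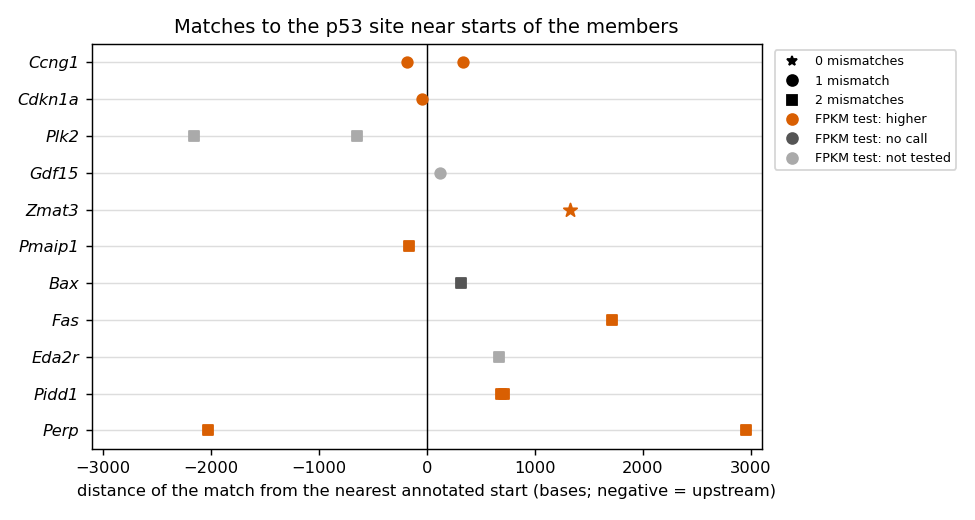
Distance in bases of each match from the nearest annotated start of the 11 members that held one (x axis; negative values are upstream), with the shape giving the number of mismatches and the colour the call on FPKM. Zmat3 holds the single match with 0 mismatches, 1324 bases downstream of its start.

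Trp53 fell while the feedback genes under its control rose or showed no call. Trp53 (chr11:69393861-69405375, plus strand) measured 77.8, 89.1 and 80.9 FPKM in the control samples and 50.2, 56.8 and 54.4 FPKM in the shCTCF samples. Every shCTCF sample was below every control sample. The log2 fold change was −0.61 ± 0.08 (SE, n = 3 per group, limma adjusted p = 0.00021), and with each sample scaled to the same median it was −0.43 (adjusted p = 0.0018). On counts Trp53 could not be tested, since 5.1% of its exonic bases were countable.

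Mdm2 (chr10:117125931-117147814, minus strand), the ubiquitin ligase that opposes p53, measured 33.3, 30.8 and 30.6 FPKM in control and 110, 111 and 110 FPKM in shCTCF. The groups were widely separated, and the spread within each was small. The log2 fold change was 1.78 ± 0.06 (SE, adjusted p = 2.8e-07). Mdm4, a partner of MDM2 that masks the activation domain of p53, did not pass the test, with 29.8 ± 4.60 FPKM in control and 29.1 ± 0.756 FPKM in shCTCF (SD, n = 3). Its log2 fold change of −0.02 had a 95% interval of −0.28 to 0.24.

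Ccng1 encodes cyclin G1, which acts in the MDM2 feedback, and it reached the highest level of all members in shCTCF. Its values were 52.1, 33.7 and 52.6 FPKM in control and 444, 430 and 432 FPKM in shCTCF, a ratio of means of 9.44. The lowest control value belonged to the shallowest library, and all control samples were far below every shCTCF sample. The log2 fold change was 3.24 ± 0.16 on FPKM (adjusted p = 1.3e-06) and 3.42 ± 0.15 on counts (edgeR adjusted p = 1.3e-09). Ppm1d, the phosphatase WIP1 that removes damage-signalling phosphates, rose by less, with a log2 fold change of 0.34 on FPKM (adjusted p = 0.021) and 0.53 on counts (adjusted p = 0.0015). Its call on FPKM was lost when shCTCF replicate 1 (adjusted p = 0.083) or shCTCF replicate 2 (adjusted p = 0.062) was left out.

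By estimate, the transcripts of the MDM genes shifted in makeup. FPKM of single accessions are Cufflinks estimates that divide shared reads among overlapping transcripts, and they are given as a description. Both Mdm2 accessions start at the same base and differ by exon 3 of the 12-exon form, which is 85 bases long (chr10:117146756-117146840). The 12-exon form was estimated at 27.2, 30.8 and 24.6 FPKM in control and 64.5, 75.7 and 70.6 FPKM in shCTCF. The 11-exon form, which skips that exon, was at 6.15, 0 and 5.92 FPKM in control and 45.4, 35.7 and 39.3 FPKM in shCTCF. Its share of Mdm2 was between 0 and 19.4% in control and between 32.0 and 41.3% in shCTCF. The only countable bases of Mdm2 were those of the 85-base exon. Fragments that touched it and no exon shared by both accessions numbered 10, 4 and 10 in control and 9, 8 and 5 in shCTCF, and such fragments may extend into the flanking introns. Their sums were 24 in control and 22 in shCTCF, so these few fragments did not show the rise estimated for the 12-exon form.

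The total of Mdm4 showed no call, but the estimates for its accessions moved in opposite directions. An 11-exon coding accession went from 17.6, 12.6 and 18.9 FPKM in control to 6.53, 5.0 and 6.98 FPKM in shCTCF. A 10-exon accession annotated as non-coding, which lacks a 68-base exon of the coding form (chr1:134901231-134901298), went from 9.24, 0 and 12 FPKM to 22.1, 23.6 and 22.9 FPKM. Other 11-exon forms were estimated at 12.1 FPKM in control replicate 2 and at 6.86 FPKM in control replicate 1, and at 0 in the other samples. The 10-exon form made up 76.7 to 82.5% of Mdm4 in shCTCF and at most 38.9% in control. Skipping of such an exon is known to yield a shortened Mdm4 product. The counts could not check this division, since both of these forms had 0 counts in every sample. The few counts of Mdm4, 2, 0 and 1 in control and 0, 2 and 1 in shCTCF, fell on a 12-exon form. That form was estimated at 0 FPKM in every sample.

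**Figure D4:**
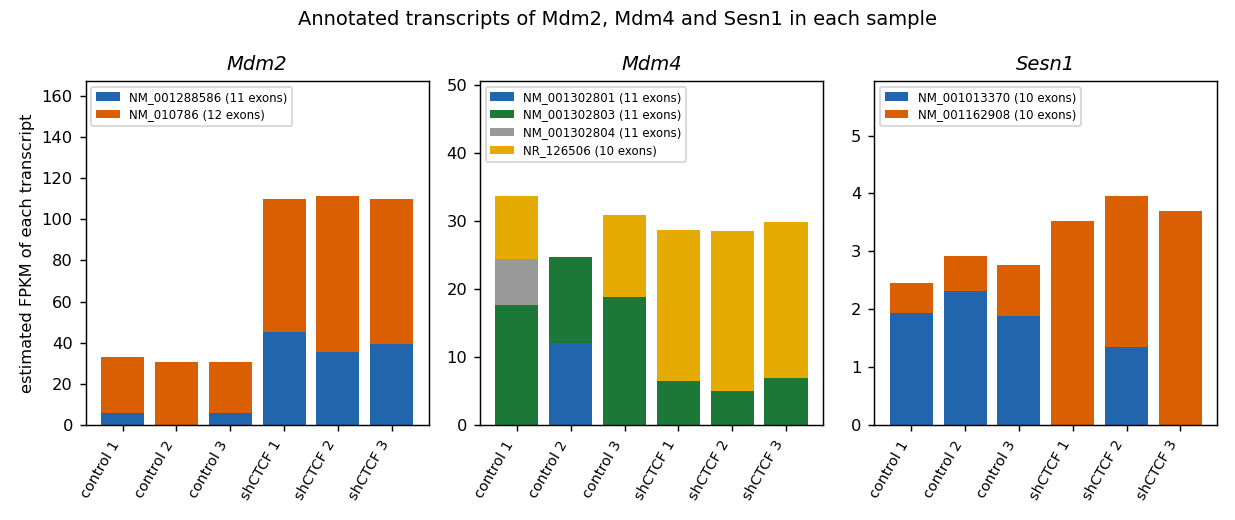
Stacked bars give the estimated FPKM of each annotated transcript of Mdm2, Mdm4 and Sesn1 in each of the 6 samples, with a panel and y scale for each gene. The shCTCF samples show more of the 11-exon Mdm2 form, mostly the 10-exon Mdm4 form at a similar total, and mostly the Sesn1 form with the upstream start.

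Of the 9 members sorted under arrest and growth control, the 6 tested on FPKM were all called higher, by log2 fold changes of 0.35 to 2.61. Cdkn1a (chr17:29227924-29237667, plus strand) encodes p21, the inhibitor of cyclin-dependent kinases through which p53 stops the cell cycle. It measured 68.7, 72.7 and 72.4 FPKM in control and 314, 293 and 280 FPKM in shCTCF, a ratio of 4.15. No control sample came near the shCTCF samples, and the log2 fold change was 2.04 ± 0.06 (adjusted p = 1.6e-07). Of its exonic bases, 10.6% were countable. They held 8, 8 and 15 fragments in control and 25, 19 and 23 in shCTCF, a log2 fold change of 0.99 ± 0.40 (adjusted p = 0.044). That call was lost with library size as the only scaling (adjusted p = 0.084), with DESeq2 (adjusted p = 0.12), with the replicate number as a block (adjusted p = 0.092) and with any single library left out except control replicate 2. The printed match to the p53 site lies 41 bases before the upstream start and 2831 bases before the downstream start. Fragments unique to the upstream-start accession numbered 0, 0 and 0 in control and 4, 7 and 4 in shCTCF, although Cufflinks listed this accession at 0 FPKM in all samples.

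Dcxr, which encodes a dicarbonyl and L-xylulose reductase, measured 3.47, 3.72 and 3.34 FPKM in control and 23.1, 29.5 and 27.5 FPKM in shCTCF (log2 fold change 2.61 ± 0.11, adjusted p = 5.4e-07). Sesn2, a leucine sensor that restrains the growth kinase complex mTORC1, went from 21.2, 26.8 and 20.5 FPKM to 65.1, 77.3 and 74.6 FPKM (1.63 ± 0.12, adjusted p = 8.4e-06). Zmat3, an RNA-binding zinc finger protein, went from 6.38, 5.99 and 5.40 FPKM to 16.4, 15.4 and 15.6 FPKM (1.28 ± 0.09, adjusted p = 6.5e-06). In each of these genes all shCTCF samples exceeded all control samples. On counts Sesn2 and Zmat3 were also higher, with log2 fold changes of 1.87 and 1.6, and Dcxr had too few countable bases to be tested. Gadd45a, a growth arrest and DNA damage protein, was expressed at 73.9 ± 3.85 FPKM in control and rose by a log2 fold change of 0.47 on FPKM (adjusted p = 0.00071) and 0.73 on counts (adjusted p = 6.4e-06). Gadd45a and Zmat3 overlap genes on the opposite strand (E230016M11Rik and 4930429B21Rik). Bases shared with those genes did not enter the counts, which left 80.6% of Gadd45a and 97.9% of Zmat3 countable.

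Sesn1, another restrainer of mTORC1, changed more in the estimates for its transcripts than in its total. Its sum was 2.45, 2.91 and 2.77 FPKM in control and 3.53, 3.96 and 3.69 FPKM in shCTCF. The groups did not overlap, and the log2 fold change was 0.35 ± 0.10 (adjusted p = 0.017). This call was lost without control replicate 1 (adjusted p = 0.06) or shCTCF replicate 2 (adjusted p = 0.066), and the value was 1.35 when the accession with the highest mean stood for the gene. The accession with the upstream start (chr10:41530380) went from 0.522, 0.603 and 0.885 FPKM to 3.52, 2.60 and 3.69 FPKM. The accession that starts 76865 bases downstream went from 1.93, 2.31 and 1.88 FPKM to 0, 1.36 and 0 FPKM. The 5, 1 and 8 counts in control and 26, 16 and 25 counts in shCTCF all belonged to the upstream-start accession, and the log2 fold change on counts was 2.17 ± 0.39 (adjusted p = 0.00032). The downstream-start form, whose own first exon is 157 bases long, had 0 counts in every control and shCTCF sample. The counts thus showed a rise of the upstream-start form but could not check the estimated fall of the other.

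**Figure D5:**
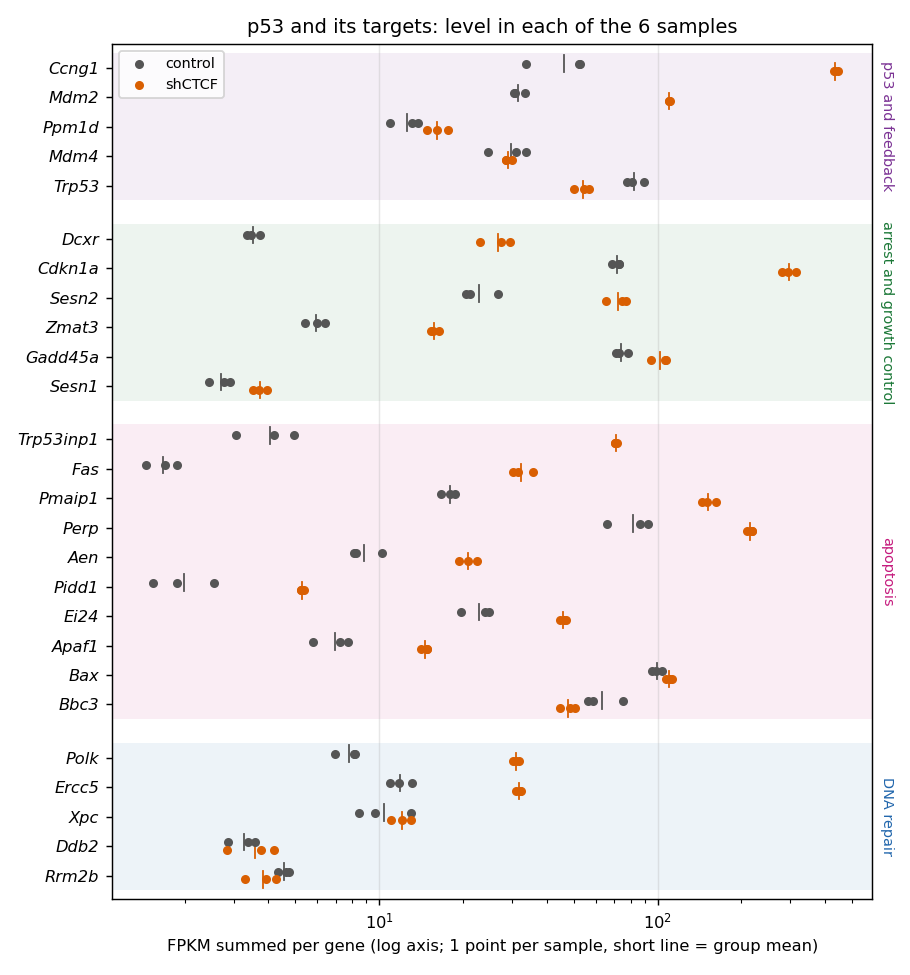
FPKM of the 26 tested members in each of the 6 samples (x axis, log scale), with control samples in grey, shCTCF samples in orange and group means as short lines. Samples of a group lie close together, and Ccng1, Dcxr, Trp53inp1, Fas and Pmaip1 show the widest gaps between groups.

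Among the apoptosis genes, the largest rises were in a nuclear stress protein, a death receptor and a BH3-only protein. Trp53inp1, a p53-inducible nuclear protein, measured 4.19, 3.06 and 4.95 FPKM in control and 71.5, 70.2 and 70.4 FPKM in shCTCF, a ratio of 17.4 (log2 fold change 3.84 ± 0.13, adjusted p = 2.7e-07). Fas (chr19:34365149-34402260, plus strand), the receptor for FAS ligand, measured 1.88, 1.46 and 1.70 FPKM in control and 35.6, 30.2 and 31.4 FPKM in shCTCF, a ratio of 19.3 (3.64 ± 0.10, adjusted p = 9.9e-08). Both genes were low in all control samples and well expressed in all shCTCF samples. Fas had 25, 7 and 38 counts in control and 483, 376 and 491 counts in shCTCF, with a log2 fold change of 4.2 ± 0.16 on counts (adjusted p = 5.8e-10). Its printed match lies 1714 bases downstream of the start.

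The BH3-only proteins NOXA and PUMA, which release the mitochondrial branch of apoptosis, moved in opposite directions on FPKM. Pmaip1, which encodes NOXA, went from 18.8, 16.7 and 18.0 FPKM in control to 162, 144 and 150 FPKM in shCTCF (log2 fold change 3.02 ± 0.07, adjusted p = 5.9e-08), and counts gave 3.26 ± 0.09 (adjusted p = 2.8e-11). Bbc3, which encodes PUMA, measured 56.3, 75.1 and 58.5 FPKM in control and 44.5, 48.3 and 50.4 FPKM in shCTCF. The ranges did not overlap, and the log2 fold change was −0.39 ± 0.11 (adjusted p = 0.016). The Bbc3 call was lost with each sample scaled to the same median (−0.21, adjusted p = 0.15) and without shCTCF replicate 1 (adjusted p = 0.064), and on counts Bbc3 did not pass (−0.20, adjusted p = 0.13), except with library size as the only scaling (−0.37, adjusted p = 0.012). In control the Bbc3 mean was above that of Pmaip1 on the FPKM scale (63.3 against 17.9), and in shCTCF it was below it (47.8 against 152).

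The remaining tested apoptosis genes rose by smaller amounts, apart from Bax. Perp, a membrane protein of desmosomes, measured 92.1, 66.0 and 86.8 FPKM in control and 219, 219 and 209 FPKM in shCTCF (log2 fold change 1.40 ± 0.12, adjusted p = 2.1e-05). Aen, an apoptosis-enhancing nuclease, went from 8.27, 10.2 and 8.15 FPKM to 20.8, 22.4 and 19.3 FPKM (1.15 ± 0.11, adjusted p = 3.2e-05). Pidd1, the scaffold of the PIDDosome that activates caspase-2, went from 1.54, 2.56 and 1.88 FPKM to 5.39, 5.25 and 5.23 FPKM (1.08 ± 0.14, adjusted p = 0.00021). All 3 genes were separated between the groups. Apaf1, the scaffold of the apoptosome, and Ei24, a membrane protein of the endoplasmic reticulum, rose with ratios of mean FPKM of 2.1 and 2.01, and their log2 fold changes on log2(FPKM + 1) were 0.98 (adjusted p = 9.2e-05) and 0.99 (adjusted p = 4.3e-05). For Ei24 the call was lost when the accession with the highest mean stood for the gene (0.34, adjusted p = 0.12). Bax, the pore-forming effector that BH3-only proteins activate, was at 99.5 ± 4.39 FPKM in control and 110 ± 2.94 FPKM in shCTCF (SD, n = 3). Its log2 fold change of 0.14 did not pass on FPKM (adjusted p = 0.061), but it passed with each sample scaled to the same median (0.33, adjusted p = 0.0022), without control replicate 2 (0.18, adjusted p = 0.0074) and on counts (0.39 ± 0.07, adjusted p = 0.00039).

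The DNA repair genes were divided. Polk, the translesion DNA polymerase kappa, measured 8.15, 6.94 and 8.22 FPKM in control and 31.0, 30.3 and 31.7 FPKM in shCTCF (log2 fold change 1.87 ± 0.09, adjusted p = 9.2e-07). Ercc5, the endonuclease XPG of nucleotide excision repair, went from 10.9, 13.1 and 11.8 FPKM to 32.3, 32.0 and 31.1 FPKM (1.35 ± 0.08, adjusted p = 3.8e-06). Both were higher on counts as well, by 1.49 for Polk, from 7.2% of its bases, and by 1.63 for Ercc5. The damage recognition factors of the same excision pathway responded less. Xpc was at 10.4 ± 2.37 FPKM in control and 12.1 ± 1.00 FPKM in shCTCF and did not pass on FPKM (0.22, adjusted p = 0.22), though it passed on FPKM without control replicate 2 (0.38, adjusted p = 0.0064). Xpc also passed on counts (0.47, adjusted p = 0.0067), a call lost with library size as the only scaling (0.30, adjusted p = 0.057). Ddb2 did not pass in either table (0.10 on FPKM, with a 95% interval of −0.23 to 0.43, and 0.40 on counts), and it overlaps Acp2 on the opposite strand. Rrm2b, the p53-inducible small subunit of ribonucleotide reductase, did not pass either, with a log2 fold change of −0.21 and an interval of −0.46 to 0.05.

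The 6 members below the filter on low values were Btg2, Plk2, Gdf15, Tnfrsf10b, Eda2r and Phlda3. They encode a factor that promotes mRNA deadenylation, a polo-like kinase, a secreted stress cytokine, a death receptor for TRAIL, a receptor of the TNF receptor family and an inhibitor of AKT. None exceeded 0.321 FPKM or 17 counts in any sample. Gdf15 was at 0, 0 and 0.0629 FPKM in control and 0.146, 0.240 and 0.129 FPKM in shCTCF, and Tnfrsf10b at 0.117, 0.114 and 0.0547 FPKM and 0.318, 0.209 and 0.168 FPKM. Phlda3 was listed at 0 in all control samples and at 0.0689, 0.0754 and 0.182 FPKM in shCTCF. These genes were separated between groups, but an exact two-sided permutation test of 3 against 3 samples cannot give a p below 0.1, and no difference can be read at such levels. Gdf15, Plk2 and Eda2r each held a match to the p53 site.

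Of 25 kinases, modifiers and cofactors that act on p53, 22 were tested on FPKM, of which 3 rose (13.6%, against 28.8% of all genes tested) and 11 fell (50%, against 44.2%). Their median log2 fold change was −0.36, against −0.17 over all genes. The damage kinase Atr fell from 11.8 ± 2.97 to 4.08 ± 0.110 FPKM (−1.31, adjusted p = 0.00024), the break-response scaffold Trp53bp1 by 1.22 and the kinase Dyrk2 by 1.43 on the log2 scale. Those that rose were Daxx (1.63), Trp53bp2 (0.92), whose product steers p53 to apoptosis genes, and the methyltransferase gene Setd7 (0.82). The p53 relative Trp63 was listed at 0 in all samples, and Trp73 and Cdkn2a, whose ARF product inhibits MDM2, stayed under a mean of 1 FPKM.

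Of a list of 40 further p53 targets, 29 were tested on FPKM, of which 16 rose (55.2%, against 28.8% of all genes tested) and 9 fell (31%, against 44.2%). The median log2 fold change of the list was 0.42. Ctsd, the lysosomal protease cathepsin D, rose by 2.26 (adjusted p = 5.7e-07), Anxa4 by 1.28 and the kinase gene Plk3 by 1.13. The mitochondrial glutaminase gene Gls2 fell by 1.69, Plxnb2 by 1.45 and the ferredoxin reductase gene Fdxr by 1.15.

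Genes that p53 is known to repress indirectly, through p21 and the DREAM complex, were lower throughout. All 28 listed genes were tested on FPKM and all 28 fell, against 44.2% of all genes tested. Their median log2 fold change was −1.48, against −0.17 over all genes. All 21 of them tested on counts fell too, against 34.3% of all genes tested on counts. Plk1, a mitotic kinase, went from 38.1 ± 1.71 to 5.34 ± 0.310 FPKM (−2.63, adjusted p = 1.3e-07). Cenpa, the centromeric histone, fell by 2.61, and Cdc20, an activator of the anaphase-promoting complex, by 2.47. These are cell cycle genes, and a smaller share of dividing cells and less RNA of these genes per cell cannot be told apart.

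Other responses moved in the same samples. Some p53 targets, Sesn2 among the members, are also induced by the integrated stress response, a program led by ATF4. Of 16 genes of that response, with Sesn2 counted among them, 8 rose (50%, against 28.8% of all genes tested) and 5 fell (31.2%, against 44.2%). The median was 0.29, and Atf4 mRNA itself fell from 705 to 392 FPKM in the group means. Atf3 went from 4.90 ± 1.77 to 48.9 ± 3.47 FPKM (log2 fold change 3.12) and Nupr1 rose by 1.36, whereas the amino acid synthesis genes Aldh18a1, Asns and Psat1 fell by 1.80, 1.40 and 0.89. Interferon-response genes rose in 28 of 29 tested (96.6%, against 28.8% of all genes tested), with a median of 3.58. Their summed level was 601 to 681 FPKM in control and 5430 to 5700 FPKM in shCTCF. Some of them were at 0 FPKM in every control sample and so passed the filter on low values only through shCTCF. The part of either response in the rise of the p53 targets was not tested.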

How the data were processed

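RNA-seq was analysed in 3 control and 3 shCTCF libraries, grouped by their labels. The authors trimmed and aligned reads of stranded mRNA libraries to mm9. The submitters' processing notes name HISAT2 4.8.2 and Cufflinks 2.2.1, and the file header names featureCounts 1.6.2. The deposited counts are whole fragments per RefSeq accession, not normalized and, per the file headers, counted without strand, with fragments on several accessions dropped. The deposited FPKM were made by the authors with Cufflinks and are scaled to depth and transcript length. No value column lacked a sample.

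Accessions were named with a RefSeq gene table of assembly GRCm38.p6, used for names only, and values were summed per gene symbol. Of 41388 accessions in the count table, 41186 had a symbol, and of 41876 FPKM rows, 41685 did. Unmatched rows held at most 0.603% of the counts in a library. FPKM were tested with limma 3.58.1 (trend) on log2(FPKM + 1) for genes whose mean reached 1 FPKM, so fold changes of low genes are understated. Counts were tested with edgeR 4.0.16 (quasi-likelihood, TMM, filterByExpr), with DESeq2 1.42.0 as an alternative, in R 4.3.3. P-values were adjusted by Benjamini-Hochberg over all genes tested, with a threshold of 0.05. Members below the FPKM filter were compared by an exact permutation test. Both fits were tested on simulated data. At the depths here, 3 counts correspond to 0.426 to 1.779 CPM, which covers counting error only.

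The members and lists were chosen with earlier results of these data known, so lists are described by counts and medians without a test. Values in every sample are given for Trp53, Mdm2, Cdkn1a and each member called with at least a 2-fold difference in either table. From each list, up to 3 called genes that rose most and 3 that fell most may be named, and Atf4 was named besides these. Gdf15, Tnfrsf10b, Phlda3, Bbc3, Mdm4 and the transcripts of Mdm2, Mdm4, Sesn1 and Cdkn1a were chosen for detail after their values were seen. Alternatives covered the pseudocount, filters, scaling, accession choice, a replicate block and leaving out each library. Sequences were read from the mm9 assembly.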

Additional observations from a re-analysis of the deposited data

How the results depend on the processing

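Of the comparisons of single members with another setting, 486 kept both direction and call, 16 lost a call, 4 gained one and 4 changed direction. The 4 reversals were all of Mdm4 on FPKM, which passed in none: 0.15 with each sample scaled to the same median, 2.22 (adjusted p = 0.077) with the accession of highest mean, and 0.01 and 0.07 without control replicate 3 and control replicate 1, in a range of −0.15 to 0.07 over the 6 fits that left out 1 library. On FPKM the number of members higher in shCTCF ranged from 17 to 21 and the number lower from 1 to 2 when 1 library was left out, and 1 was lower with each sample scaled to the same median or without shCTCF replicate 1. On counts, leaving out 1 library gave 13 or 14 higher and 0 lower, and 1 was lower with library size as the only scaling and with no filter on low counts. With equal sample medians the median of all genes on FPKM went from −0.17 to −0.01. With library size as the only scaling the median of all genes on counts moved from −0.02 to −0.19. The replicate block gave 19 higher and 2 lower on FPKM and 13 higher and 0 lower on counts, losing Cdkn1a (adjusted p = 0.092) there and changing no other member's call. Deviations of samples with the same number correlated at −0.041, 0.018 and 0.0395, against −0.0808 to 0.0837 for different numbers. No pairing by number was visible, though so few samples cannot exclude it. Overlapping accessions left 5.1% of Trp53 and 2.7% of Mdm2 countable, so the counts could not test them, and the shallowest library, control replicate 2, held 1686052 counts. The causes of these differences were not tested.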
